A study of Mus musculus with 48 samples.

Results

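Type I interferon response genes are genes that cells switch on after type I interferons bind their receptor. A list of 38 of them was followed by gene symbol, with the brightest probe on average standing for each gene, and 37 of the 38 had a named probe among the 22485 gene symbols measured. Ifi44 was not analysed here. Members were chosen by symbol, with earlier results of these data known, and the choice among probes used only the mean over all samples. The study asked whether Glatopa, a generic glatiramer acetate, and the reference product Copaxone give the same gene expression in T cells that respond to glatiramer acetate. Each sample was the RNA of 1 well, taken after 24 hours and measured on a single-color Agilent mouse array. The wells held a nonclonal Th2-polarized CD4+ T-cell line raised from BALB/c mice immunized with Copaxone and kept through 13 rounds of Copaxone restimulation, together with splenocytes of naive BALB/c mice as antigen-presenting cells. The mice behind the line were female and 8 to 12 weeks old.

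Glatiramer acetate is a mixture of synthetic polypeptides of alanine, glutamic acid, lysine and tyrosine, and copolymers of this kind are called glatiramoids. Copaxone was tested in 17 samples from 9 lots, Glatopa in 16 samples from 4 lots, and ACN (AcN in the labels), a nonconforming copolymer that is chemically distinct from Copaxone, in 8 samples from 1 lot, each at 20 µg/mL. Media, the control, was 7 samples without glatiramoid, with mannitol in place of that in the products. All groups therefore share the same T-cell line, the same kind of splenocytes and the same prior exposure of the line to Copaxone. Values are the authors' log2 intensities after quantile normalization, so a difference of 1 is a 2-fold change. A member was called when its adjusted p from limma, with Benjamini-Hochberg adjustment over all 39430 probes, was under 0.05. The samples are wells of 1 cell line, so p-values measure the spread between wells, which may be technical.

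Type I interferons bind the receptor IFNAR, whose kinases JAK1 and TYK2 pass the signal on to transcription factors. These bind interferon-stimulated response elements in the promoters of responsive genes. Many of the products bind viral RNA, degrade nucleic acids or block viral entry and release, some (among them Usp18) dampen the response itself, and cells keep a low level of many of these transcripts without infection. Macrophages and plasmacytoid dendritic cells are known as strong producers or responders, and T and B cells respond as well.

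Promoter sequences, 250 bases before to 50 bases after the start of transcription, were taken from RefSeq (GRCm38.p6) and matched 28 of the 38 members by symbol. Dhx58, Parp14, Zbp1, Oas2, Mx1, Mx2, Rtp4, Parp9, Usp18 and Tor3a were not matched. The core of the response element was searched as GAAANNGAAA, and on the other strand as TTTCNNTTTC, with overlapping matches counted. It stood in the promoter of 12 of the 28 members (42.9%) and in that of 3.99% of all 27025 genes with a promoter, or 3.44% of all 32851 promoters. Of the members with a promoter, 6 of the 12 that were lower with Copaxone and 6 of the 15 that were not called held a match. Of the 5 members with the largest falls with Copaxone, Ifit3 and Rsad2 held a match, whereas Oasl1, Samd9l and Oasl2 held none. The promoters shown here are those of Ifit3, Rsad2 and Oasl1 from these 5, of Ifit1 for comparison with its neighbor Ifit3, and of Isg15 as a member with 3 matches and a smaller fall, on the strand of the gene, with the letters of each match other than its N positions in capitals. In Ifit3 (chr19:34583279-34583578, plus strand) the matches begin 156 and 122 bases before the start, in Ifit1 (chr19:34640639-34640938, plus strand) 104 and 85 bases, in Rsad2 (chr12:26456403-26456702, minus strand) 120 bases, and in Isg15 (chr4:156200769-156201068, minus strand) 3 overlapping matches begin 78, 72 and 66 bases before it. Oasl1 (chr5:114922990-114923289, plus strand) held none in this window.
Ifit3: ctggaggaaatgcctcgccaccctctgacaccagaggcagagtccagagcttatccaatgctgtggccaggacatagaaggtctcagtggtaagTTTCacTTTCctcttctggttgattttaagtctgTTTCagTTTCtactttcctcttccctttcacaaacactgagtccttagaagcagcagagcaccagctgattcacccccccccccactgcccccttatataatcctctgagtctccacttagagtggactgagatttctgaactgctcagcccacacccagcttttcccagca
Ifit1: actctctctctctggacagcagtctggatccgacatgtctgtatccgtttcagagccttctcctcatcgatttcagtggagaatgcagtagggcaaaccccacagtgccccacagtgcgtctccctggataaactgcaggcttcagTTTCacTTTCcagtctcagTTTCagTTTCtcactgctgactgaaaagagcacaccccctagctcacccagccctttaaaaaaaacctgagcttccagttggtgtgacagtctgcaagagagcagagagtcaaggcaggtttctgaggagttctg
Rsad2: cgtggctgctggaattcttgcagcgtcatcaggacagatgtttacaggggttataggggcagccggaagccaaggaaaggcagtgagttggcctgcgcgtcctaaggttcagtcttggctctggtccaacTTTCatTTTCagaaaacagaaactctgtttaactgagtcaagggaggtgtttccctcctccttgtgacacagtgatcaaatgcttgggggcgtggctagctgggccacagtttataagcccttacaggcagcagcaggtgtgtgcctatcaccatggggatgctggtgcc
Isg15: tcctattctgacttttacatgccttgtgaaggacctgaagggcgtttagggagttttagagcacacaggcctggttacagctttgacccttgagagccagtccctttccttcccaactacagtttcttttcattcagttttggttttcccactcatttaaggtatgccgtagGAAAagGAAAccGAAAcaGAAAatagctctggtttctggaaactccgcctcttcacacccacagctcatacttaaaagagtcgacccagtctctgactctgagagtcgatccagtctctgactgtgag
Oasl1: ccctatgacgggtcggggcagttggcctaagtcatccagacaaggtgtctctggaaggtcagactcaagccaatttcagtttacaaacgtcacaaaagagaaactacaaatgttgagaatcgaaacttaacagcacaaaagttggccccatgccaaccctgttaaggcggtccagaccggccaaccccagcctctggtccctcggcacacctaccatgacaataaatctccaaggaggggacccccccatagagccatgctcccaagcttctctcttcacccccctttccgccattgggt

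Most of the interferon response genes that moved were lower with a glatiramoid than in Media. With Copaxone 18 of the 37 members were lower and 1 (Zbp1) was higher, against 7.46% of all probes lower and 8.71% higher. Oasl1, Ifit3, Rsad2, Samd9l and Oasl2 had the largest falls, between -0.79 and -1.15 on the log2 scale. The median difference of the 37 members was -0.29, and that of all probes was -0.0034. With Glatopa 19 members were lower and 1 was higher, with a median of -0.32, against 8.56% of all probes lower and 10.3% higher. With ACN 11 were lower and 1 was higher, with a median of -0.27, against 3.36% lower and 3.73% higher. All probes include 9994 without a symbol and many dim ones. The members are each gene's brightest probe, and 1 of the 37 is below the median intensity of all probes. The shares over all probes therefore come from a set unlike the members. With lot as a random block 6 of the 12 ACN calls stayed, and those of Rsad2, Usp18, Parp14, Rtp4, Lgals3bp and Zbp1 were lost (adjusted p from 0.0744 to 0.194). The 3 comparisons share the same 7 Media samples, so their counts are not independent. Without Media replicates 1 and 7, a choice made after their values were seen, the count with Copaxone was 12 (11 lower, 1 higher), with Glatopa 14 and with ACN 10. Leaving out 1 Media or ACN sample or 1 lot at a time gave 16 to 19, 19 to 21 and 11 to 13 calls, respectively.

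**Figure D1:**
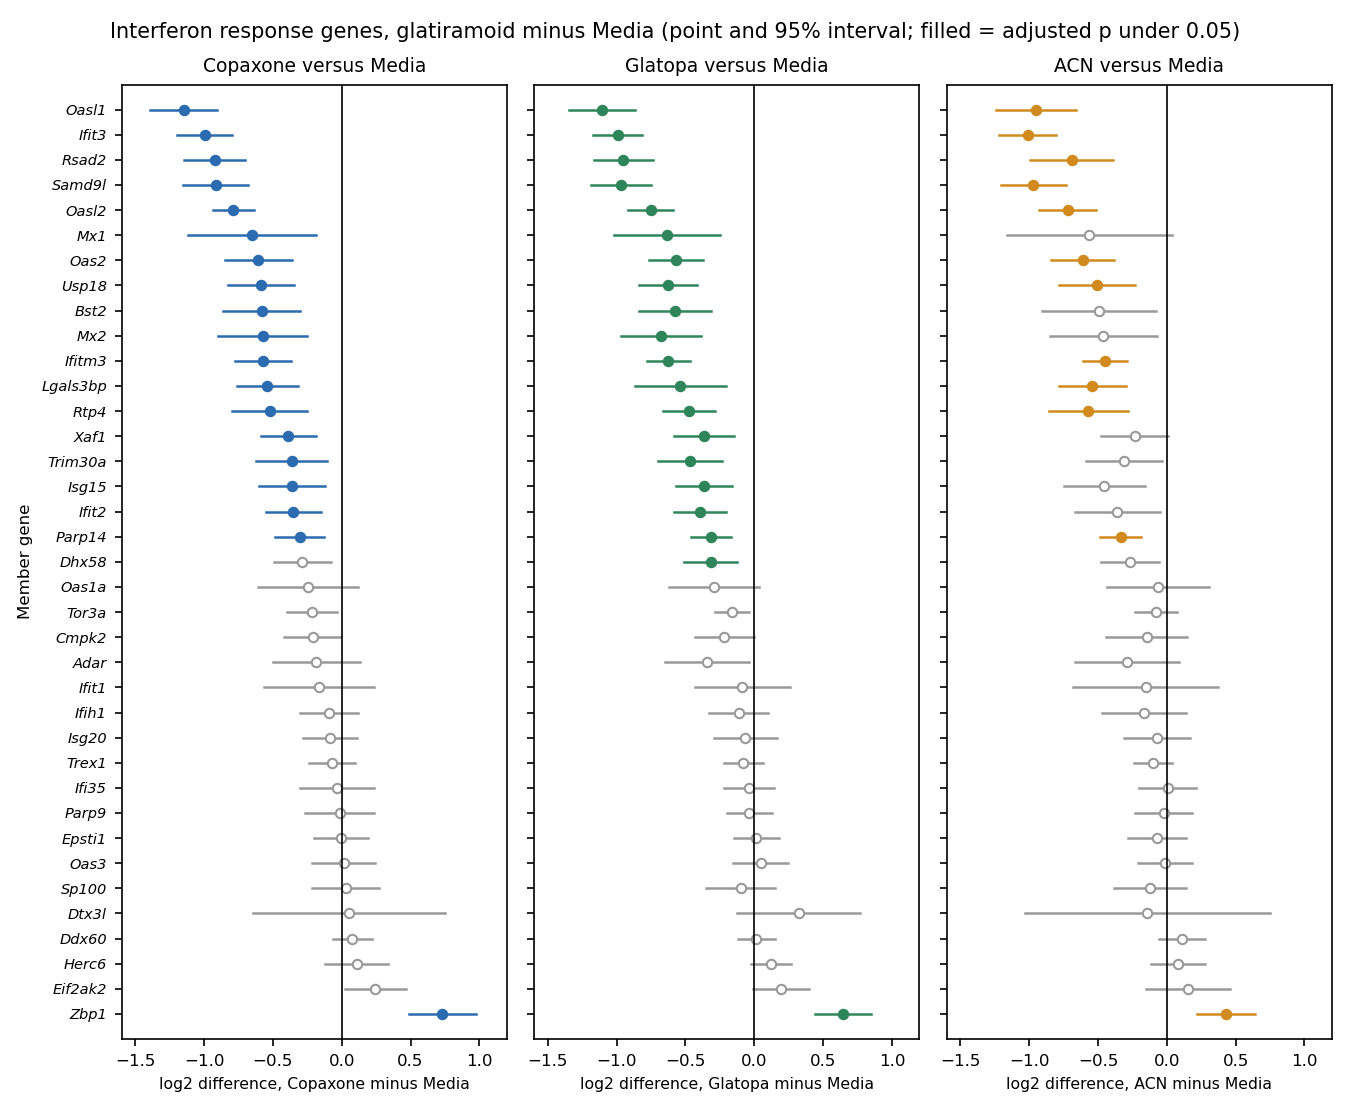
Log2 difference from Media (horizontal axis) of each of the 37 members (rows) with Copaxone, Glatopa and ACN. Points are estimates with 95% intervals, filled where the adjusted p was under 0.05; the 5 members at the top lie between -0.79 and -1.15 with Copaxone, and Zbp1 at the bottom is the member called higher, at 0.73.

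The IFIT proteins bind viral RNA, and ISG15 is a ubiquitin-like protein that is joined to other proteins, with HERC6 as its ligase and USP18 as the protease that removes it. Of these 6 genes 4 were lower with Copaxone and 4 with Glatopa, and 2 with ACN, against 7.46%, 8.56% and 3.36% of all probes. Ifit3 (gene ID 15959, chromosome 19) ranged from 7.78 to 8.53 in Media (median 8.11), from 6.58 to 7.45 with Copaxone (7.18), from 6.84 to 7.49 with Glatopa (7.09) and from 6.97 to 7.29 with ACN (7.11). Every sample with a glatiramoid therefore lay below every Media sample. Ifit3 fell by 1.00 with Copaxone (7.13 ± 0.21 (SD, n = 17) against 8.13 ± 0.26 (SD, n = 7), adjusted p = 2.08e-08), by 0.99 with Glatopa (adjusted p = 3.25e-09) and by 1.01 with ACN (adjusted p = 4.42e-06).

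Ifit1, whose promoter also holds 2 matches and which neighbors Ifit3 on chromosome 19, was not called. It ranged from 5.22 to 7.25 in Media (median 6.66) and from 5.56 to 6.93 with Copaxone (6.40). The groups overlapped, the Media samples had an SD of 0.67, and the difference of -0.17 had a 95% interval from -0.57 to 0.24 (adjusted p = 0.687). Ifit2, the third IFIT gene of the list, was lower by a smaller amount than Ifit3. Its difference was -0.35 with Copaxone (adjusted p = 0.0107) and -0.39 with Glatopa (adjusted p = 0.00218), and with ACN it was -0.36 without passing the test (adjusted p = 0.194).

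Usp18 fell by 0.59 with Copaxone (7.48 ± 0.26 against 8.07 ± 0.29, adjusted p = 0.000556), with 16 of 17 samples below every Media sample. The exception was replicate 2 of Copaxone lot 3, at 8.33. Usp18 also fell by 0.63 with Glatopa and by 0.51 with ACN (adjusted p = 0.0234), and the ACN call was lost without Media replicate 1 (adjusted p = 0.0504) or Media replicate 7 (adjusted p = 0.0527). Isg15 lay between 10.44 and 11.26 in Media (median 10.71) and between 9.70 and 10.78 with Copaxone (10.45), so the groups overlapped in part. It fell by 0.36 with Copaxone (adjusted p = 0.0331) and by 0.36 with Glatopa (adjusted p = 0.00867), and its difference with ACN was -0.45 (adjusted p = 0.064). The Copaxone call was lost without Media replicate 1, 3 or 5 and without lot 1, 4, 5 or 7 (adjusted p from 0.0517 to 0.114). A second, dimmer Isg15 probe differed by -0.0011 with Copaxone, and the mean of both probes by -0.18 (adjusted p = 0.296). Herc6 differed by 0.11 with Copaxone, 0.12 with Glatopa and 0.08 with ACN, none of which passed the test.

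Oligoadenylate synthetases sense double-stranded RNA and activate RNase L, and the OAS-like proteins carry a ubiquitin-like tail; in mice OASL1 is known to restrain translation of Irf7 mRNA. Of the 5 OAS genes, Oasl1, Oasl2 and Oas2 were lower with each glatiramoid, whereas Oas1a and Oas3 were not called. The shares of all probes lower with Copaxone, Glatopa and ACN were 7.46%, 8.56% and 3.36%. Oasl1 (gene ID 231655, chromosome 5) ranged from 9.15 to 10.15 in Media (median 9.86), from 8.28 to 9.10 with Copaxone (8.71), from 8.02 to 9.18 with Glatopa (8.72) and from 8.51 to 9.22 with ACN (8.92). All 17 Copaxone samples lay below every Media sample, while 1 of the 16 Glatopa and 1 of the 8 ACN samples did not. Oasl1 fell 2.21-fold with Copaxone (8.65 ± 0.25 against 9.80 ± 0.33, log2 difference -1.15, adjusted p = 5.69e-08), with log2 differences of -1.11 with Glatopa (adjusted p = 7.19e-08) and -0.95 with ACN (adjusted p = 0.000279).

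Oasl2, its neighbor on chromosome 5, ranged from 6.72 to 7.14 in Media (median 6.83), from 5.71 to 6.33 with Copaxone (6.09), from 5.60 to 6.41 with Glatopa (6.18) and from 5.89 to 6.55 with ACN (6.14). No sample with a glatiramoid overlapped with Media. Oasl2 fell by 0.79 with Copaxone (adjusted p = 8.45e-09), by 0.75 with Glatopa and by 0.72 with ACN. Oas2 fell by 0.60 with Copaxone (adjusted p = 0.000418, 14 of 17 samples below every Media sample), by 0.57 with Glatopa and by 0.61 with ACN. Oas3, next to Oas2, differed by 0.01 with Copaxone (95% interval -0.22 to 0.24). Oas1a differed by -0.24 with Copaxone (95% interval -0.61 to 0.12, adjusted p = 0.448), and Media ranged from 7.74 to 9.21. A second Oas1a probe was lower with Glatopa (-0.27, adjusted p = 0.000918) and was not called with Copaxone (-0.20, adjusted p = 0.281).

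Among 8 other antiviral effectors 6 were lower with Copaxone, 6 with Glatopa and 3 with ACN, against 7.46%, 8.56% and 3.36% of all probes. ACN had fewer samples (8), and its differences for Mx1, Mx2 and Bst2 were -0.56, -0.46 and -0.49 without a call. With Copaxone these genes were called at -0.65, -0.57 and -0.58. Rsad2 encodes viperin, which makes a chain-terminating nucleotide, and Cmpk2 is its neighbor on chromosome 12. Rsad2 (gene ID 58185) ranged from 6.28 to 7.09 in Media (median 6.57), from 5.41 to 6.04 with Copaxone (5.83), from 5.40 to 6.04 with Glatopa (5.73) and from 5.53 to 6.42 with ACN (5.98). Neither product overlapped with Media, whereas 1 of the 8 ACN samples did. Rsad2 fell by 0.92 with Copaxone (adjusted p = 3.89e-07), by 0.95 with Glatopa (adjusted p = 1.07e-07) and by 0.69 with ACN (adjusted p = 0.00565). Cmpk2 differed by -0.21 with Copaxone (95% interval -0.42 to -0.0031, adjusted p = 0.188) and was not called with either of the others.

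Samd9l, which restricts viral translation, ranged from 8.93 to 9.71 in Media (median 9.32), from 7.78 to 8.79 with Copaxone (8.38), from 7.82 to 8.65 with Glatopa (8.24) and from 8.06 to 8.51 with ACN (8.28). Again no sample with a glatiramoid reached the lowest Media sample. Samd9l fell by 0.92 with Copaxone (adjusted p = 1.17e-06), by 0.97 with Glatopa and by 0.97 with ACN, and its second probe fell by 0.73, 0.82 and 0.74. Ifitm3, a membrane protein that blocks viral entry and was measured here as the mean of 10 spots, fell by 0.57 with Copaxone (adjusted p = 0.000107), by 0.62 with Glatopa and by 0.45 with ACN (adjusted p = 0.00108).

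**Figure D2:**
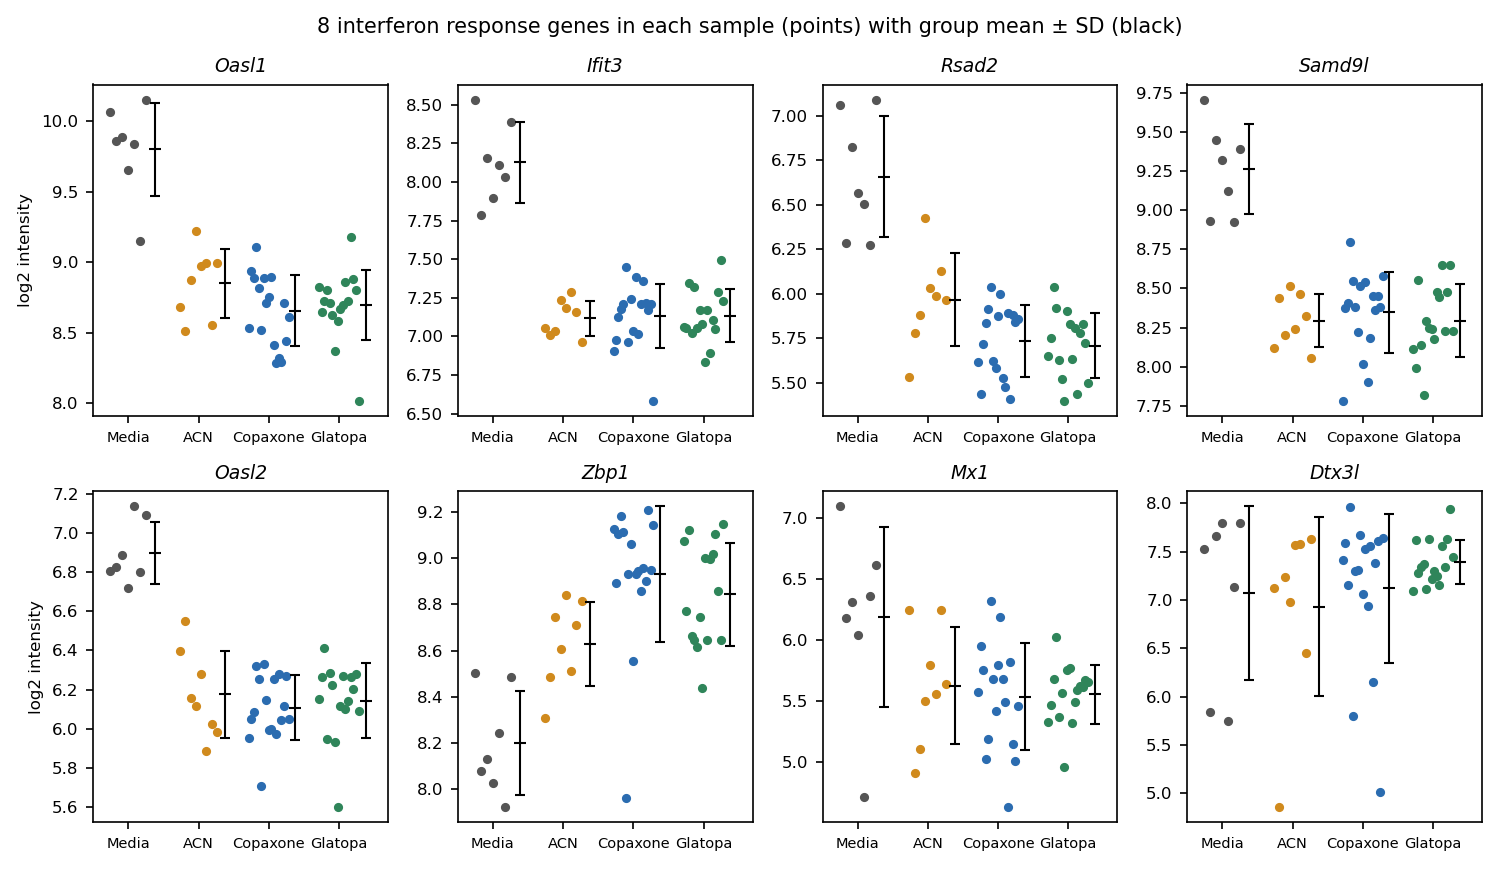
Log2 intensity (vertical axis) of 8 members in each Media, ACN, Copaxone and Glatopa sample (points), with the group mean and SD in black. For Ifit3, Samd9l and Oasl2 every sample with a glatiramoid is below the lowest Media sample (7.78, 8.93 and 6.72), Zbp1 lies the other way with 1 low Copaxone sample at 7.96, and Mx1 and Dtx3l show Media samples spread from 4.71 to 7.10 and from 5.75 to 7.80.

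Bst2, or tetherin, which holds budding virions on the cell surface, fell by 0.58 with Copaxone (adjusted p = 0.00284) and by 0.58 with Glatopa, with 7 of 17 and 5 of 16 samples below every Media sample. With ACN its difference was -0.49 (adjusted p = 0.174), with ACN replicate 2 at 8.34 and the others between 9.41 and 9.87. The dynamin-like GTPases Mx1 and Mx2 were lower with both products and had wide Media values. Mx2 lay between 6.49 and 8.00 in Media and fell by 0.57 with Copaxone (adjusted p = 0.0101) and by 0.68 with Glatopa. Mx1 lay between 4.71 and 7.10 in Media (median 6.31) and between 4.63 and 6.32 with Copaxone (5.57), so only 1 of 17 Copaxone samples was below every Media sample. Its difference of -0.65 with Copaxone was at the edge of the test (adjusted p = 0.0491) and lost the call without any 1 Media replicate other than replicate 5, or without any 1 Copaxone lot other than 3 and 5 (adjusted p from 0.0535 to 0.157). With Glatopa Mx1 differed by -0.63 (adjusted p = 0.0155), and this call was lost without Media replicate 1 (adjusted p = 0.0598). BALB/c mice carry a nonfunctional Mx1 allele, so the probe reports its transcript and not an antiviral protein. Isg20, an exonuclease, differed by -0.08 with Copaxone (95% interval -0.28 to 0.11), -0.07 with Glatopa and -0.07 with ACN.

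Zbp1, a sensor of Z-form nucleic acid that can trigger necroptosis, was the member called higher, and it moved against the other called members with each glatiramoid. It ranged from 7.92 to 8.50 in Media (median 8.13), from 7.96 to 9.21 with Copaxone (8.95), from 8.44 to 9.15 with Glatopa (8.82) and from 8.31 to 8.84 with ACN (8.66). In the Copaxone group 16 of 17 samples lay above every Media sample, and the exception was replicate 2 of lot 3. Zbp1 rose by 0.73 with Copaxone (8.93 ± 0.29 against 8.20 ± 0.22, adjusted p = 5.07e-05), by 0.64 with Glatopa (adjusted p = 1.47e-05, 15 of 16 samples) and by 0.43 with ACN (adjusted p = 0.0138, 6 of 8 samples). Its second probe rose by 0.53 with Copaxone and by 0.56 with Glatopa, and with ACN it differed by 0.40 (adjusted p = 0.0543).

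The other 6 sensors and editors of nucleic acids were not called with Copaxone. Dhx58, a RIG-I-like receptor also called LGP2, differed by -0.29 with Copaxone (adjusted p = 0.0534) and by -0.27 with ACN (adjusted p = 0.146), and fell by 0.32 with Glatopa (adjusted p = 0.0169). This last call was lost without Media replicate 6 (adjusted p = 0.0536) or Glatopa lot 2 (adjusted p = 0.061). Ifih1, which encodes the RNA sensor MDA5, differed by -0.09 with Copaxone (95% interval -0.30 to 0.12). Adar, an RNA editor, differed by -0.18, -0.34 and -0.29 with Copaxone, Glatopa and ACN, and Trex1, a DNA exonuclease, by -0.07, -0.08 and -0.10. Eif2ak2, which encodes the kinase PKR, had positive differences of 0.24, 0.19 and 0.15 that did not pass the test (adjusted p = 0.148, 0.204 and 0.687). Ddx60 was the member below the median intensity of all probes, with group means from 4.70 to 4.81 against a median of 4.93 for all probes, so that any change in it may be hidden.

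Parp9 and Dtx3l form an ADP-ribosylating ubiquitin ligase, Parp14 is an ADP-ribosyltransferase that promotes IL-4 responses through STAT6, and Sp100 is a component of nuclear bodies. Parp14 was the 1 gene of these 4 to be called. It fell by 0.30 with Copaxone (8.62 ± 0.22 against 8.92 ± 0.10, adjusted p = 0.014), by 0.32 with Glatopa (adjusted p = 0.0017) and by 0.34 with ACN (adjusted p = 0.00683). Its neighbors on chromosome 16 were not called. Parp9 differed by -0.02 with Copaxone (95% interval -0.27 to 0.24). Dtx3l varied most from well to well, from 5.75 to 7.80 in Media, 5.02 to 7.96 with Copaxone and 4.85 to 7.63 with ACN, but only from 7.09 to 7.94 with Glatopa. Its lowest Media samples were replicates 5 and 2, and its lowest Copaxone and ACN samples were replicate 1 of lot 9 and replicate 2. The difference of 0.05 between Copaxone and Media therefore had a 95% interval from -0.64 to 0.75. A second, dimmer Dtx3l probe had differences of -0.02, -0.09 and -0.03 with Copaxone, Glatopa and ACN. Sp100 differed by 0.03 with Copaxone (95% interval -0.21 to 0.27).

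Of the 7 remaining members measured, 4 were lower with Copaxone, 4 with Glatopa and 2 with ACN. Among all probes 7.46%, 8.56% and 3.36% were lower. Rtp4, a chaperone of cell-surface receptors, fell by 0.52 with Copaxone (10.11 ± 0.34 against 10.63 ± 0.22, adjusted p = 0.00593), by 0.47 with Glatopa and by 0.57 with ACN (adjusted p = 0.0147). Lgals3bp, a secreted glycoprotein that binds galectins, fell by 0.54 with Copaxone, 0.54 with Glatopa and 0.54 with ACN (adjusted p = 0.000648, 0.0168 and 0.00696), and its second probe fell by 0.37 with Copaxone and 0.39 with Glatopa and differed by -0.37 with ACN (adjusted p = 0.0925). Xaf1, an antagonist of the apoptosis inhibitor XIAP, fell by 0.39 with Copaxone (adjusted p = 0.00497) and by 0.36 with Glatopa, and differed by -0.23 with ACN (95% interval -0.48 to 0.0092). A second, dimmer Xaf1 probe was not called, with differences of -0.13 with Copaxone (adjusted p = 0.103), -0.10 with Glatopa and -0.16 with ACN. Trim30a, which restrains TLR signaling in mice, fell by 0.47 with Glatopa (adjusted p = 0.00352) and by 0.36 with Copaxone (adjusted p = 0.0469). The Trim30a call with Copaxone was lost without any 1 Media replicate other than replicate 2, or without lot 1, 4, 6 or 8 (adjusted p from 0.0579 to 0.124).

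Tor3a, an ATPase of the endoplasmic reticulum, differed by -0.22 with Copaxone (adjusted p = 0.106) and by -0.16 with Glatopa (adjusted p = 0.0573). A second, dimmer Tor3a probe differed by 0.09 with Copaxone, 0.05 with Glatopa and 0.08 with ACN, without a call. Ifi35 differed by -0.03 with Copaxone (95% interval -0.30 to 0.23), and Epsti1 by -0.0063 (95% interval -0.20 to 0.19), with Epsti1 at 5.07 to 5.09 in Media and with both products, near the median of all probes. The 95% intervals of Tor3a, Ifi35 and Epsti1 with Copaxone reached no lower than -0.40.

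The Media wells themselves differed in these genes. Media replicate 1 was the highest Media sample for 16 of the 37 members, and the mean log2 value of the 37 members was 7.95 in it and 7.90 in replicate 7, against 7.58 to 7.79 in the other 5. With a glatiramoid this mean stood at 7.29 to 7.57 in the Copaxone samples, 7.27 to 7.52 in the Glatopa samples and 7.35 to 7.51 in the ACN samples, all below the lowest Media sample. Among the treated wells, replicate 2 of Copaxone lot 3 was the highest Copaxone sample for 8 members, including Usp18 (8.33) and Ifitm3 (7.77), and the lowest for Zbp1 (7.96), Rtp4 (9.45) and Oasl2 (5.71). Replicate 2 of Copaxone lot 9 was the lowest Copaxone sample for 9 members, including Ifit3 (6.58), and had the lowest member mean of the group (7.29). Without lot 3 all 19 members called with Copaxone kept their call, and without lot 9 18 of the 19 did.

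**Figure D3:**
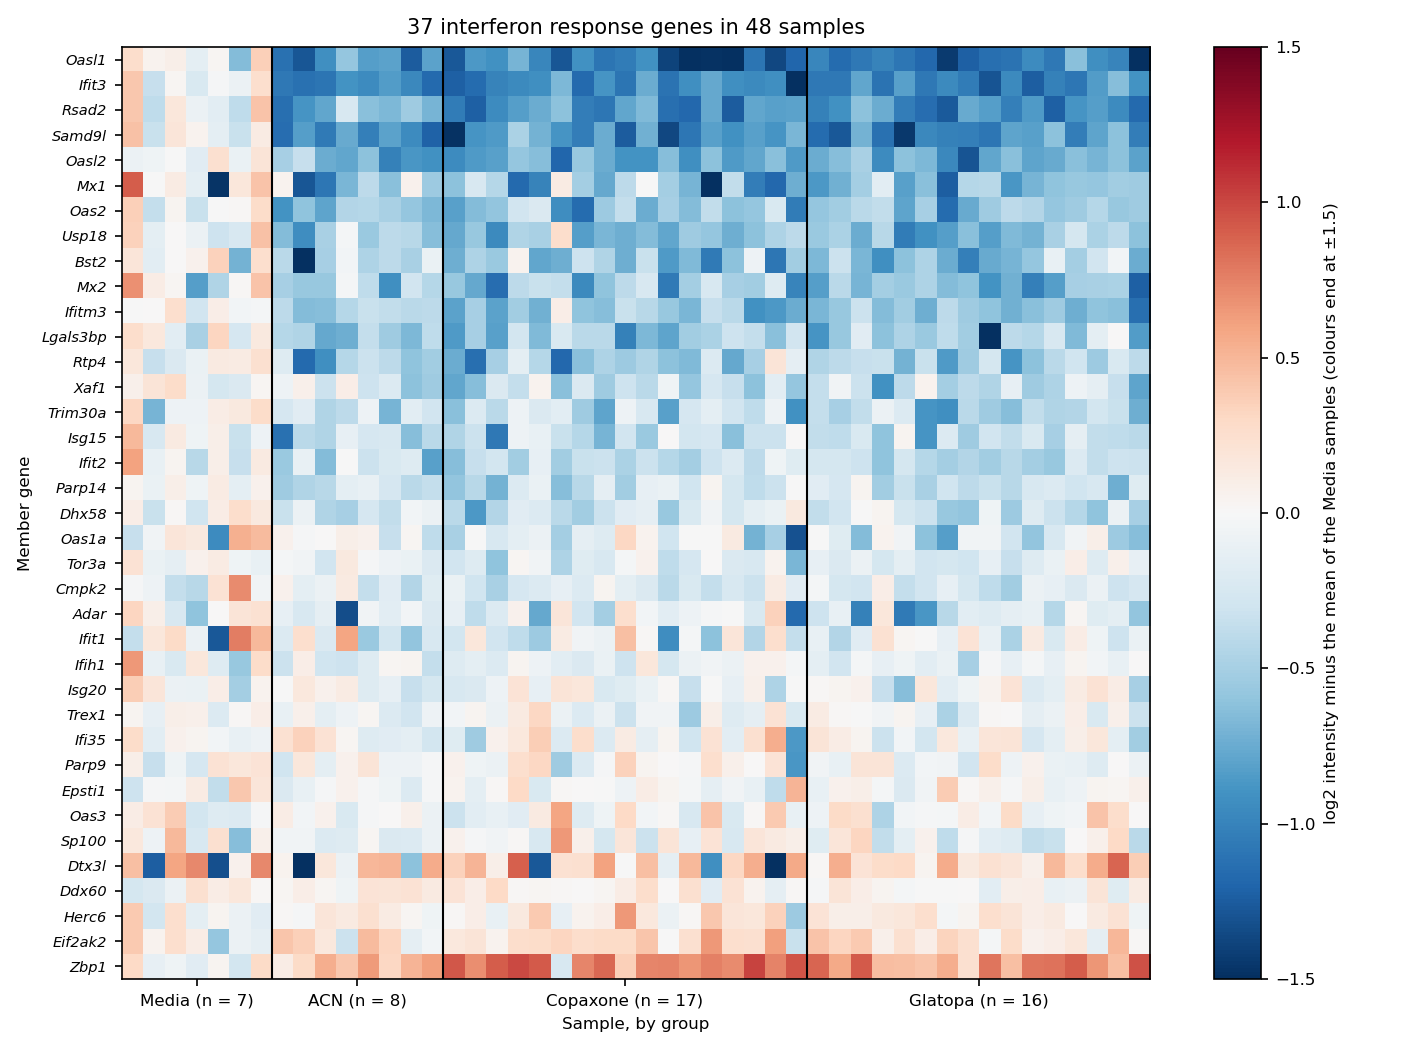
Log2 intensity of the 37 members (rows) in the 48 samples (columns, by group) minus the mean of the 7 Media samples; blue is lower and red is higher. The upper rows are blue in nearly all treated wells, Zbp1 in the bottom row is red, and among the Media wells replicates 1 and 7 (the first and last columns) are the reddest, with member means of 7.95 and 7.90.

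Lot means of the leading members all lay on 1 side of Media. The 9 Copaxone lot means of Oasl1 ran from 8.31 (lot 7) to 9.00 (lot 2), those of Ifit3 from 6.90 (lot 9) to 7.33 (lot 3) and those of Rsad2 from 5.50 (lot 6) to 5.98 (lot 3). For each of these genes the highest lot mean was below the lowest single Media sample, at 9.15, 7.78 and 6.28. The 4 Glatopa lot means ran from 8.57 to 8.75 for Oasl1 and from 5.61 to 5.84 for Rsad2, and were at most 7.26 for Ifit3. Zbp1 had Copaxone lot means from 8.54 (lot 3) to 9.21 (lot 8, with 1 sample) and Glatopa lot means from 8.61 to 8.94, all above its highest Media sample of 8.50.

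Between the glatiramoids, which were tested at the same concentration and time, no member was called in any of the 3 pairs by limma or by the methods' t-test with Benjamini-Hochberg adjustment. Copaxone and Glatopa, which are both glatiramer acetate, had 0 of 37 members at an unadjusted p under 0.05, and 0% of all probes were called. Their differences ran from -0.16 (Adar) to 0.27 (Dtx3l), with a median of -0.0059. The 95% intervals of 35 of the 37 members lay within a 1.3-fold change in either direction, and the others were those of Dtx3l (-0.12 to 0.66) and Adar (-0.41 to 0.09). For Oasl1 the interval of Glatopa minus Copaxone was -0.13 to 0.21, for Ifit3 -0.13 to 0.14 and for Rsad2 -0.16 to 0.11.

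ACN and Copaxone also had 0 members called, against 0.112% of all probes, with 2 of 37 at an unadjusted p under 0.05. Zbp1 differed by -0.30 (ACN minus Copaxone, 95% interval -0.53 to -0.08, adjusted p = 0.379) and Rsad2 by 0.23 (0.04 to 0.42, adjusted p = 0.468). ACN and Glatopa had 0 called, against 0.68% of all probes, with 5 at an unadjusted p under 0.05. These were Rsad2 (0.26, adjusted p = 0.21), Ifitm3 (0.17), Zbp1 (-0.22), Mx2 (0.22) and Dtx3l (-0.46). A p that misses the threshold does not show that the glatiramoids act alike. The intervals lay within a 1.3-fold change for 29 members in ACN against Copaxone and for 32 in ACN against Glatopa, and within a 1.5-fold change for 36 of 37 in each pair, the exception being Dtx3l. The 2 comparisons with ACN share its 8 samples, all from 1 lot, so that the lot and the copolymer cannot be told apart.

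**Figure D4:**
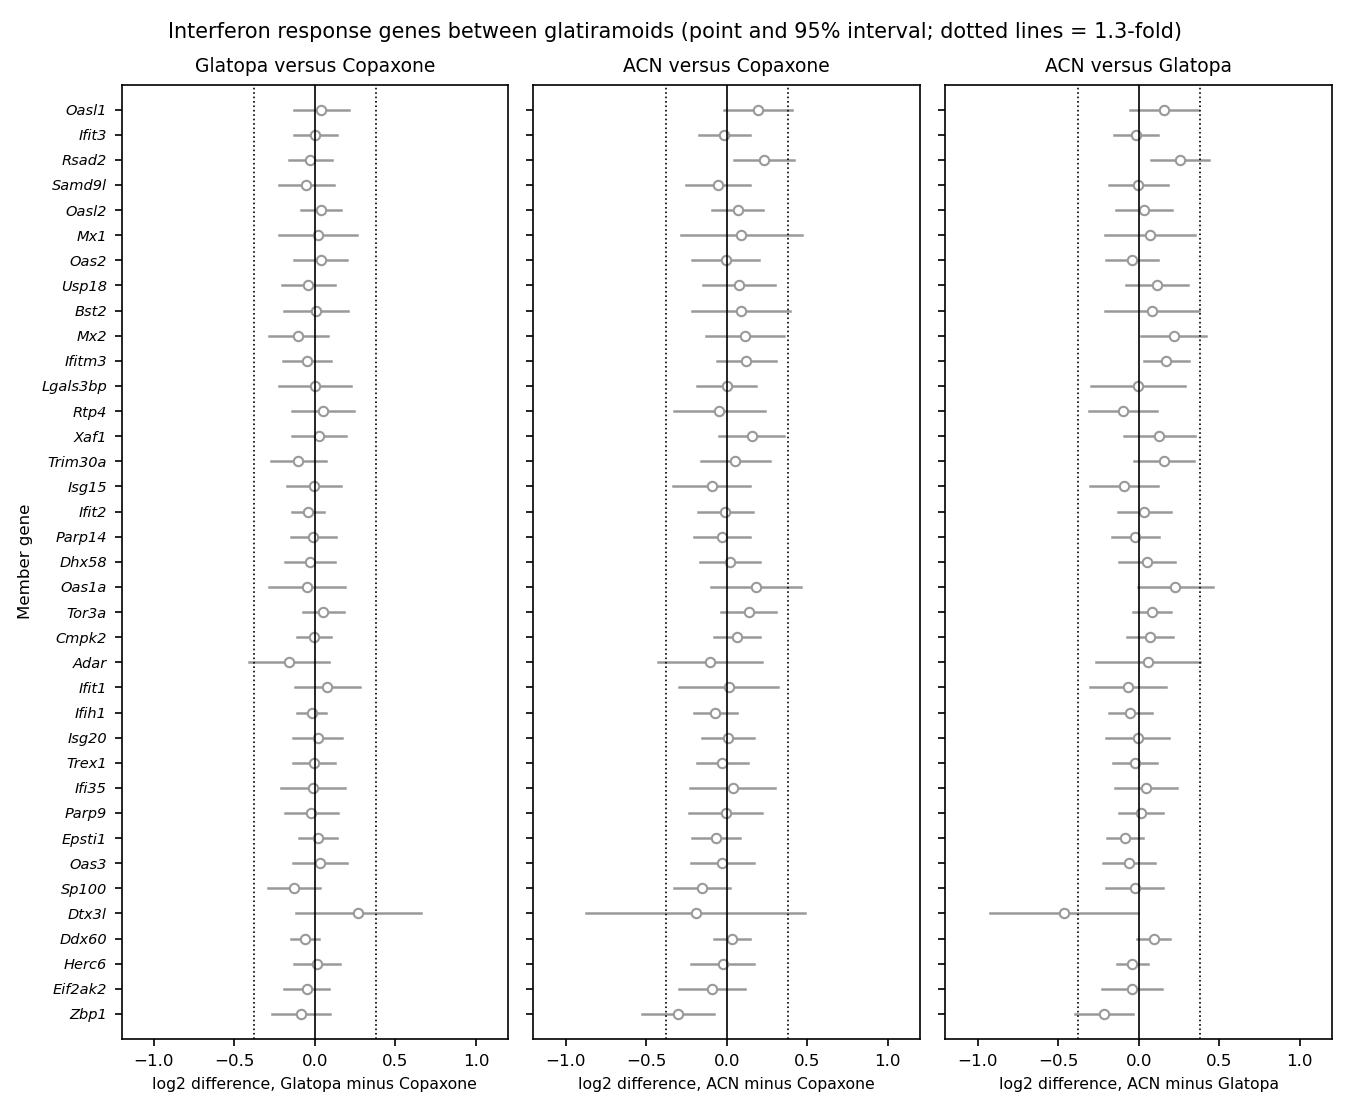
Log2 differences of the 37 members (rows) between Glatopa and Copaxone, ACN and Copaxone, and ACN and Glatopa, with 95% intervals; dotted lines mark a 1.3-fold change. No point is filled, since no adjusted p was under 0.05, and Dtx3l has the widest interval in each panel.

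Other genes of the pathway were read from lists made by function, with earlier results of these data known. None of the 13 type I interferon genes measured was called with any glatiramoid in limma, and none had an unadjusted p under 0.05. Ifnb1, which encodes interferon beta, stood at 4.74 ± 0.20 with Copaxone and 4.83 ± 0.16 in Media (95% interval of the difference -0.26 to 0.08), near the median of all probes, so that a low level of the ligand could not be followed here. Of 11 genes of the receptors and their signaling, 4 were lower and 2 higher with Copaxone. Among all probes 7.46% were lower and 8.71% higher. The receptor chain Ifnar2 fell by 0.43 with Copaxone (adjusted p = 1.48e-05), by 0.46 with Glatopa and by 0.44 with ACN, and Jak1 fell by 0.40, 0.54 and 0.32. The feedback inhibitor Socs1, which blocks JAK kinases, rose by 2.32 with Copaxone (10.89 ± 0.34 against 8.57 ± 0.38, adjusted p = 1.10e-11), by 2.29 with Glatopa and by 2.05 with ACN. Socs3 rose by 0.95, 1.12 and 0.79.

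Of 13 genes that induce interferon 3 were lower and 3 higher with Copaxone, against 7.46% of all probes lower and 8.71% higher. Irf7, the main inducer of interferon alpha genes and itself induced by interferon, fell by 0.72 with Copaxone (7.11 ± 0.26 against 7.83 ± 0.41, adjusted p = 0.000207), by 0.70 with Glatopa and by 0.65 with ACN. Ticam1, an adaptor of TLR3, rose by 0.52, 0.60 and 0.48, and Irf8 rose by 0.62 with Copaxone and 0.57 with Glatopa. Tlr9 fell by 0.39 with Copaxone (adjusted p = 0.00301). Of 33 interferon-induced genes outside the 37 members 16 were lower and 2 higher with Copaxone, with a median of -0.27. The DNA-binding proteins Mndal (-1.09), Ifi204 (-0.99) and the surface protein Ly6e (-0.97) had the largest falls, next to Ifi44l and Ifi203 (-0.88 each). Of 22 genes known mainly for their response to interferon gamma 5 were higher and 1 was lower with Copaxone, with a median of 0.21. The GTPases Gbp2 (1.24), Iigp1 (0.82) and Gbp7 (0.77) rose with Copaxone, and the chemokine Cxcl10 fell by 0.83.

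**Figure D5:**
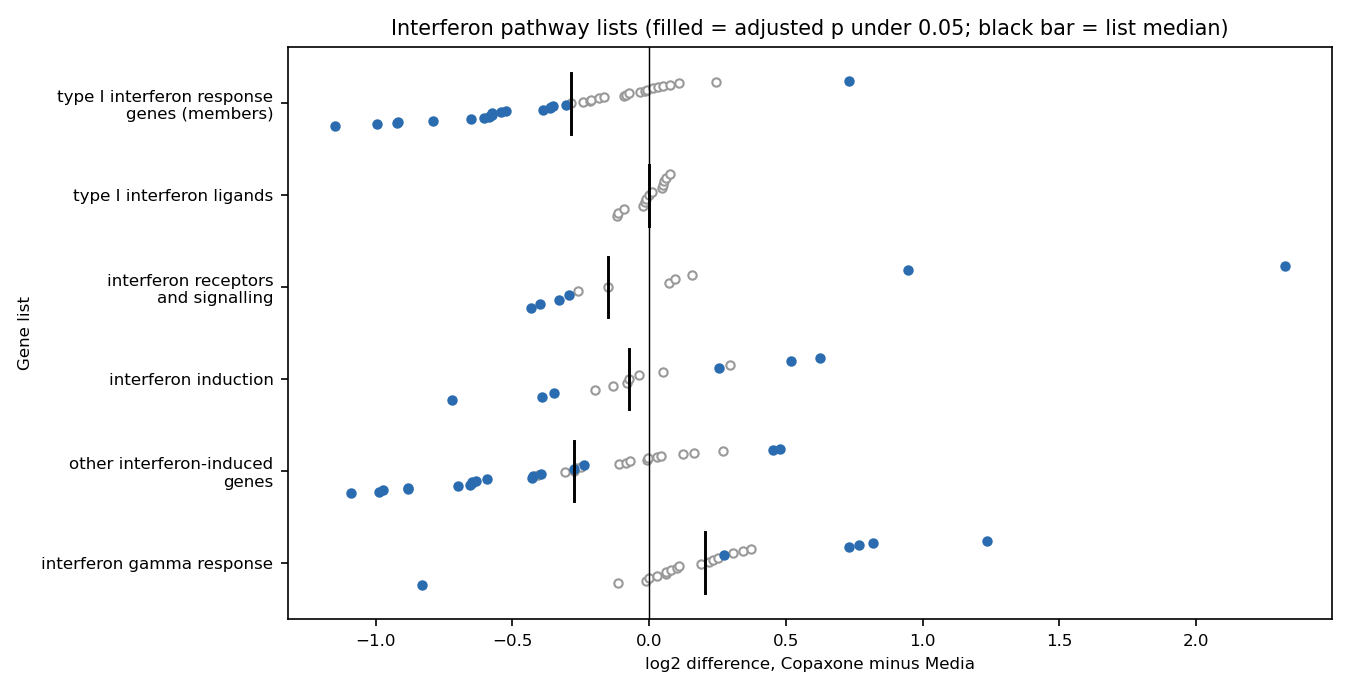
Log2 difference between Copaxone and Media (horizontal axis) for the members and the genes of 5 pathway lists (rows), filled where the adjusted p was under 0.05, with each list's median as a black bar. The ligand genes lie close to 0, the members and the other interferon-induced genes have medians of -0.29 and -0.27, the interferon gamma list has a median of 0.21, and Socs1 stands alone at 2.32.

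Markers of the cell types in the wells moved beside these genes, and in bulk RNA fewer cells of a type and less RNA per cell cannot be told apart. The T-cell marker Cd3d was bright (9.75 in Media, 9.00 with Copaxone), whereas the Cd4 probe stood at 5.17 in Media and 5.12 with Copaxone, close to the median of all probes. Of 10 monocyte and macrophage genes 5 were lower with each glatiramoid, among them Mpeg1 (-1.43) and Csf1r (-0.84 with Copaxone), and the mean level of the list was 7.24 to 7.66 in Media, 6.58 to 6.92 with Copaxone, 6.48 to 6.86 with Glatopa and 6.83 to 7.11 with ACN. Of 7 plasmacytoid dendritic cell genes 3 were lower with each glatiramoid. The list stood at 8.23 to 8.52 in Media, 7.71 to 7.95 with Copaxone, 7.64 to 8.35 with Glatopa and 7.75 to 8.25 with ACN. Its Media median was 8.34, and that of the B cell list was 8.31. Which cells expressed its genes was not tested, so the list may not report that cell type alone. Of 8 T cell genes 4 were lower (7.98 to 8.18 in Media, 7.10 to 7.74 with Copaxone), of 8 neutrophil genes 4 were lower (6.24 to 6.41 in Media, 5.86 to 6.11 with Copaxone), and of 7 NK cell and cytotoxic genes 5 were higher (5.62 to 5.78 in Media, 6.09 to 6.39 with Copaxone). Of 7 B cell genes 2 were higher and 1 was lower with Copaxone. Over all probes 7.46% were lower and 8.71% higher with Copaxone, 8.56% lower with Glatopa and 3.36% lower with ACN. The part of these shifts in the falls of Ifit3, Oasl1 and the other members was not tested.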

How the data were processed

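RNA of 48 wells was labeled with Cy3 and hybridized to Agilent mouse arrays. The authors background-corrected the intensities with normexp (offset 8) in limma, took log2 and quantile-normalized the arrays, and these deposited log2 values were used. Repeated spots of a probe were averaged where there were at least 10 of them, which left 39430 probes from 43020 spots. A gene was represented by its probe with the highest mean, and 0 value columns were left out. Groups were compared in pairs in limma 3.58.1 (R 4.3.3), two-sided, with Benjamini-Hochberg adjustment over all probes and a limit of 0.05, after tests on simulated data. All members were named, and per-sample values were given for the 5 largest called falls with Copaxone, the called rise and members in another order than most. Pathway genes were named by the size of their called change, up to 4 a list and comparison, and cell type markers after their values were seen. The members and lists were chosen with earlier results of these data known. Alternatives were other normalization, tests, probe rules, blocks and left-out samples. The number of arrays limits the precision.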

Additional observations from a re-analysis of the deposited data

Results flagged for a closer look

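Among 74 groups of 7 or 8 samples, 1 each for Media and ACN in the 37 members, 4 held a sample far from the rest, and chance alone gives about 1 in 20 groups. Trim30a was low in Media replicate 2 at 7.61, with the other 6 between 8.23 and 8.62. Bst2 was low in ACN replicate 2 at 8.34, with the other 7 between 9.41 and 9.87. Dtx3l was low in the same ACN sample at 4.85, with the others between 6.46 and 7.63. Adar was low in ACN replicate 4 at 7.30, with the others between 8.39 and 8.59.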

How the results depend on the processing

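No call in the comparisons with Media reversed under any alternative run. Of 494 values of the 19 calls with Copaxone, 446 stayed past the threshold, as did 407 of 420 with Glatopa and 287 of 300 with ACN. The calls of Ifit3, Ifitm3, Lgals3bp, Oasl1, Oasl2, Rsad2, Samd9l, Usp18 and Xaf1 with Copaxone held in every alternative, and so did those of Ifit3, Ifitm3, Oas2, Oasl1, Oasl2 and Samd9l with ACN. Leaving out 1 sample or lot gave 16 to 19 calls with Copaxone, 19 to 21 with Glatopa, 11 to 13 with ACN and 0 to 0 in each pair of glatiramoids. Without Media replicates 1 and 7, chosen after seeing the data, Copaxone had 12 calls. With lot as a random block ACN, which is 1 lot, had 6 calls. The labels do not say what the replicate numbers stand for. Deviations averaged over same-numbered samples had correlations from -0.0963 to 0.163 for Copaxone and Media. These groups share only 2 numbers, so the check cannot decide whether the numbers pair samples. With the number as a replicate block the counts were 12 with Copaxone, 17 with Glatopa and 10 with ACN. In such a fit a sample counts only if its number occurs in both groups. The Copaxone fit thus used 2 of the 7 Media samples and the Glatopa fit 4. An effect of pairing therefore cannot be told apart from the loss of Media samples. With the block the Zbp1 difference with Copaxone was 0.63 (adjusted p = 0.0804). Averaged by number, Copaxone samples correlated best with their own number in Media for 2 of 2 numbers. The 2 Copaxone averages mirror each other, so this count could only be 0 or 2. For Glatopa and Media the count was 3 of 4 (correlations from -0.0509 to 0.178), and for ACN and Media 0 of 7. Probes near the median intensity, such as Ddx60 and Epsti1, limit what could be detected.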
